A study of Mus musculus with 2 samples.

Results

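The respiratory chain genes were taken from the count matrices by symbol: the Nduf, Sdh, Uqcr, Cox4 to Cox8 and Atp5 families of the nuclear genome, and mt-Nd, mt-Cytb, mt-Co and mt-Atp of the mitochondrial genome. The rule used no measured value and matched 117 of the 55357 genes, 104 nuclear and 13 mitochondrial. They carry 116 different symbols, because Atp5o names 2 gene IDs. Of the nuclear members, 16 are annotated as pseudogenes. The rule does not match every subunit: Cyc1 of complex III and Ndufab1 of complex I are described with the neighbouring pathway genes.

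Cells came from the hearts of mice of genotype WT, 7 days after myocardial infarction, in which part of the heart muscle dies for lack of blood. The mice of one group had been injected with anti-IgG and those of the other with anti-PD1, an antibody against an inhibitory receptor of T cells. Both groups carried an infarct, uninjured hearts were not analysed here, and the labels do not say how many animals gave each library. The series design names sorted T cells, while the protocols go from tissue digestion to lysis of red cells and removal of dead cells, with no sorting step. With 1 library a group, nothing here could be checked in replicates and no test was made. All intervals are 95% intervals of counting error only, and the spread between animals is not known.

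The complexes of oxidative phosphorylation sit in the inner mitochondrial membrane. Complexes I and II pass electrons from NADH and succinate to ubiquinone, complex III hands them to cytochrome c, complex IV reduces oxygen, and complex V, the ATP synthase, uses the proton gradient to make ATP. Most subunits are encoded in the nucleus and imported, and a few hydrophobic core subunits are encoded and translated inside the mitochondrion, so both genomes supply complexes I, III, IV and V, whereas complex II is nuclear alone. In T cells, respiration is known to support activation, proliferation and memory, and naive cells rest on low but steady mitochondrial metabolism.

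Depth was counted in UMIs, the molecular tags that mark single captured RNA molecules. There were 22806806 of them over 4380 anti-IgG barcodes, and 29046341 over 6026 anti-PD1 barcodes. After filtering, 4309 and 5835 cells were kept, with medians of 4079 and 3858 UMIs. Cells with a UMI of Cd3d, Cd3e or Cd3g and fewer than 3 UMIs of any other lineage's markers were called T cells. They were 3679 (85.4%) of the kept anti-IgG cells, with a median of 3943 UMIs, and 4909 (84.1%) of the kept anti-PD1 cells, with a median of 3719. Markers of macrophages summed to 0.0738 and 0.105 UMIs per 10000 in those T cells, against 283 and 288 in the cells gated as macrophages. The 9 cardiomyocyte markers summed to 0.0346 and 0.0352 per 10000. The T cell gate itself limits both lists, and the macrophage gate requires its own, so these sums are no separate check of purity. A few barcodes, 47, occurred in both libraries; without them the nuclear ratio given below was 0.970 and the mitochondrial ratio 0.928, against 0.970 and 0.927 with them.

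The share of a cell's RNA given to the respiratory chain differed among kinds of T cells, and its nuclear and mitochondrial parts were ordered in opposite ways. T cells were divided by gate genes, none of them a member, into 9 classes. Cycling T cells, gated on genes of cell division such as Mki67 and Top2a, had the highest nuclear share: 2.26% of anti-IgG UMIs (178 cells) and 2.17% of anti-PD1 UMIs (210 cells). Naive cells had the lowest. In CD4 naive cells the nuclear part made up 1.46% and 1.43%, and in CD8 naive cells 1.43% and 1.40%. Between them lay the type 17 or gamma-delta class (1.84% and 1.77%), the NK-receptor class (1.80% and 1.63%), the Foxp3 class of regulatory-type cells (1.75% and 1.72%) and the CD8 effector class (1.72% and 1.74%).

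For the mitochondrial part naive cells were highest. CD4 naive cells gave it 0.895% and 0.787% of their UMIs and CD8 naive cells 0.891% and 0.826%, the highest values among T cells. Cycling T cells gave it 0.596% and 0.557%, the lowest over cells of all depths. There were thus 3.80 and 3.89 nuclear UMIs for each mitochondrial UMI in cycling T cells, against 1.63 and 1.82 in CD4 naive cells. Over the 9 classes the 2 shares ran against each other in both libraries (Pearson's r -0.934 and -0.920, Spearman's rho -0.80 and -0.867). The classes share their library, and cells of different classes differed in depth: the median was 8858 and 9166 UMIs in cycling T cells and 3498 and 3489 in CD4 naive cells. Over the 9 classes median depth ran with the nuclear share (Pearson's r 0.897 and 0.896) and against the mitochondrial share (-0.709 and -0.737). Among cells of 3000 to 6000 UMIs the nuclear shares were 2.13% and 2.10% in cycling T cells (34 and 45 cells) and 1.45% and 1.41% in CD4 naive cells, and the mitochondrial shares 0.747% and 0.593% against 0.873% and 0.773%. At that depth cycling T cells were not the lowest in the anti-IgG library, where the Foxp3 class had 0.675%, the other CD4 cells 0.685% and the type 17 or gamma-delta class 0.707%.

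**Figure D1:**
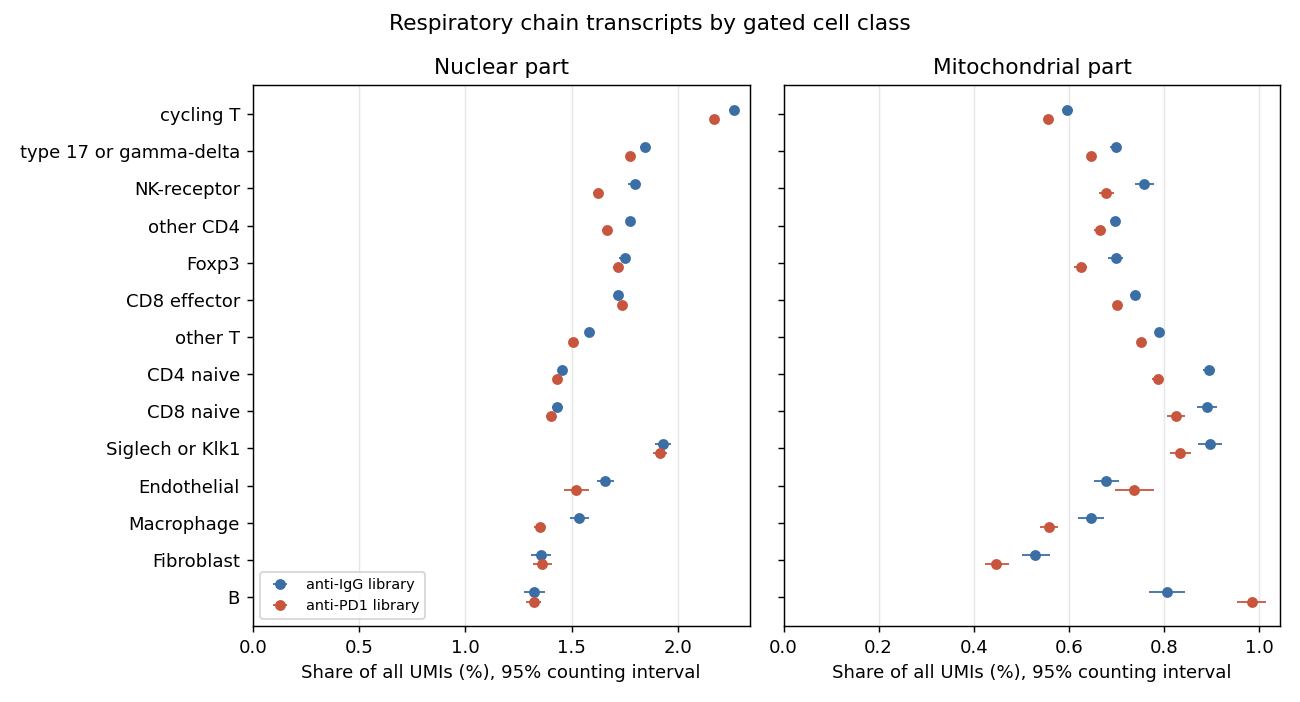
Share of all UMIs (%, horizontal axes) held by the 104 nuclear members (left) and the 13 mitochondrial members (right) in each gated class, with 1 point per library and bars for 95% counting intervals. Cycling T cells lie highest on the left (2.26% and 2.17%) and lowest among T classes on the right (0.596% and 0.557%), and B cells are the class whose anti-PD1 point lies far to the right for the mitochondrial part (0.985% against 0.807%).

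The contrast between cycling and CD4 naive T cells ran through most of the nuclear members. In the anti-IgG library 52 of the 76 nuclear members with at least 100 UMIs over both classes were higher in cycling cells by 1.5-fold or more (30.8% of all 5328 genes so tested were), and 1 was lower (11.4% of all genes). In the anti-PD1 library 46 of 76 were higher (32.4% of all genes) and 1 lower (11.8%). The median member stood at 1.64 and 1.63 times its CD4 naive level, and the median gene at 1.19 in both libraries. All 9 mitochondrial members tested in the anti-IgG library and all 8 in the anti-PD1 library were below 1, with medians of 0.653 and 0.708. These counts are over cells of all depths, and cycling cells were deeper than CD4 naive cells. The contrast lies within each library, and the libraries, which differ in treatment, are not replicates of one another.

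Members of every complex were among those that stood higher in cycling cells. Cox5a, a nuclear subunit of complex IV, had 427 anti-IgG UMIs in CD4 naive and 947 in cycling cells, and 543 and 1227 anti-PD1 UMIs, ratios of 2.65 and 2.50 per UMI. Ndufb7, an accessory subunit of complex I, stood at 2.65 and 2.69 times its naive level. Sdhb, the iron-sulfur subunit of complex II, stood at 1.96 and 2.12 times, and Uqcr11 of complex III at 2.57 and 2.16 times. For the ATP synthase, Atp5g3, one of the genes for the c ring, stood at 2.10 and 2.04 times. Of the 76 members tested in both libraries, 72 were above 1 in both. The share of all genes above 1 in both was not counted, and the median gene itself stood at 1.19 in each library.

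The 3 nuclear members below 1 in both libraries were Cox7a2l, Ndufa6 and Uqcrh, named here after their values were seen, as were the genes of the preceding paragraph. Cox7a2l, a factor of supercomplexes between complexes III and IV, had 904 UMIs in CD4 naive and 403 in cycling anti-IgG cells, and 1064 and 447 in anti-PD1 cells, ratios of 0.532 (0.472 to 0.599) and 0.464 (0.414 to 0.519). Ndufa6, an accessory subunit of complex I and the nuclear member of complex I with the most UMIs in T cells, stood at 0.667 (0.597 to 0.745) and 0.703 (0.633 to 0.780). Uqcrh, the hinge protein of complex III and its most counted nuclear member, stood at 0.828 (0.761 to 0.901) and 0.788 (0.728 to 0.853). Naive cells were therefore not low in every nuclear subunit, and these 3 moved with the mitochondrial members.

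Between the libraries the respiratory chain differed little as a whole, with the mitochondrial part lower by more than the nuclear part. In all T cells the nuclear members held 1.73% (1.72 to 1.74) of anti-IgG UMIs and 1.68% (1.67 to 1.68) of those of the anti-PD1 library, with a ratio of 0.970 (0.965 to 0.975). The mitochondrial members held 0.749% (0.745 to 0.753) and 0.694% (0.690 to 0.698), a ratio of 0.927 (0.920 to 0.934). These ratios are relative to all UMIs, and the median gene itself stood at 0.932, a log2 ratio of -0.10. Set against the median gene, the nuclear ratio was 1.04 and the mitochondrial 0.995. The direction of the nuclear part thus depends on the scale, and relative to the median gene the mitochondrial part was nearly even. That median was taken over genes with at least 100 UMIs. Among genes with at least 2000 UMIs the median log2 ratio was -0.03 for nuclear members and -0.04 for all genes, nearly even. Cell to cell, the spread within a library was wider than the difference between libraries: the middle 50% of anti-IgG T cells had nuclear shares from 1.37% to 1.92% and of anti-PD1 T cells from 1.31% to 1.89%.

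The mitochondrial share was lower in the anti-PD1 library in each of the 9 T classes, with ratios from 0.880 (0.862 to 0.898) in CD4 naive to 0.953 (0.930 to 0.976) in the other CD4 cells. The median gene with at least 100 UMIs was also below 1 in each class, from 0.934 in the other T cells to 0.984 in the NK-receptor class. In the other CD4 and other T cells the mitochondrial ratios, 0.953 and 0.952, stood above that median (0.941 and 0.934). The nuclear ratio varied more in direction. It was lowest in the NK-receptor class, at 0.904 (0.884 to 0.925), and highest in CD8 effector cells, at 1.01 (0.998 to 1.02), where the interval held 1. In the Foxp3 and CD8 naive classes the interval held 1 as well (0.963 to 1.00 and 0.955 to 1.00). The share of barcodes above the limit of 10% mitochondrial UMIs, which were left out, was 1.37% (1.05 to 1.76) in the anti-IgG and 2.97% (2.56 to 3.43) in the anti-PD1 library. With a limit of 20% the mitochondrial ratio was 0.944. Whether cell quality takes part in the mitochondrial difference was not tested.

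Single nuclear genes ranged from Atp5k, a small membrane subunit of complex V, at a ratio of 0.624, to Uqcrfs1, the iron-sulfur protein of complex III, at 1.23. Of the 104 nuclear members, 79 had at least 100 UMIs in T cells over both libraries. A ratio of 0.8 or less was counted as lower and the inverse of 0.8 or more as higher. By this count 13 were lower in the anti-PD1 library and 0 higher, while 23.4% of all 10604 genes with at least 100 UMIs were lower by that much and 11.1% higher. The members' share of lower genes, 16.5%, was under the background share. At 1.5-fold 1 member was lower (7.96% of all genes) and 0 were higher (5.36%). Among genes with at least 2000 UMIs, 10 of 72 members were lower (13.2% of all such genes) and 0 higher (10.7%). The median log2 ratio there was -0.03 for members and -0.04 for all genes. Relative to the median gene 8 were lower (15.5% of all genes) and 2 higher (15.7%). In all, 47 members lay below 1 and 32 above, the interval excluded 1 for 35 and 18 of them, and the median log2 ratio was -0.05 against -0.10 for all genes. The other 25 nuclear members had 0 (7 members) or 1 to 99 UMIs (18 members) and are 14 of the 16 pseudogenes, the second Atp5o ID, the tissue isoforms below and similar gene copies.

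In complex I, the 7 nuclear core subunits, which carry the flavin and iron-sulfur centres, had a median ratio of 1.01 and 0 of them were counted as lower. Ndufs8, an iron-sulfur core subunit, had 1384 UMIs in the anti-IgG library and 1981 in the anti-PD1 library, 0.811 and 0.917 per 10000, a ratio of 1.13 (1.06 to 1.21). Among the 29 accessory subunits, which surround the core, 6 were lower and 0 higher, with a median of 0.925 against 0.932 for the median gene. Their share of lower genes was under the 23.4% of all genes. The low ones were Ndufb1, Ndufa3, Ndufa5, Ndufs5, Ndufc1 and Ndufb4.

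Ndufa3 had 3482 UMIs in the anti-IgG library and 3124 in the anti-PD1 library, 2.04 and 1.45 per 10000, and was seen in 55.5% and 43.1% of T cells, a ratio of 0.709 (0.675 to 0.744). Ndufb1 had 1622 and 1412 UMIs, 0.951 and 0.654 per 10000, a ratio of 0.688 (0.640 to 0.739). GENCODE M21 lists the gene ID of Ndufb1 as a non-coding gene, so no length was matched to it. Both genes lay below 1 in all 9 T classes, from 0.625 to 0.873 for Ndufa3 and from 0.645 to 0.777 for Ndufb1. Ndufa5 had 1284 and 1163 UMIs, a ratio of 0.716 (0.660 to 0.775). Ndufs5 had 1364 and 1272 UMIs, a ratio of 0.737 (0.682 to 0.796). Ndufc1 had 1505 and 1443 UMIs, a ratio of 0.758 (0.704 to 0.815). These 3 also lay below 1 in all 9 classes, and class ratios for Ndufa5 spread widely, from 0.494 in the NK-receptor class (59 and 46 UMIs) to 0.940 in CD4 naive cells (120 and 122 UMIs).

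Ndufb4 had 364 and 367 UMIs, a ratio of 0.797 (0.687 to 0.923), and was above 1 in 1 class. Its annotated copy Ndufb4c had 58 and 54 UMIs, a ratio of 0.736 whose interval (0.498 to 1.08) held 1. Ndufb8, at the other end of the accessory subunits, had 1977 and 2780 UMIs, a ratio of 1.11 (1.05 to 1.18). Ndufa6 had 6134 and 7925 UMIs, 3.59 and 3.67 per 10000, and its ratio of 1.02 (0.987 to 1.06) was within counting error of 1. The accessory subunits therefore covered the whole range from 0.688 to 1.11.

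In complex II, Sdhb stood above 1 and its partners did not. Sdhb had 2241 UMIs in the anti-IgG library and 3361 in the anti-PD1 library, 1.31 and 1.56 per 10000, a ratio of 1.18 (1.12 to 1.251), and it was above 1 in all 9 T classes, from 1.10 to 1.29. Sdha, the flavoprotein, stood at 0.978 (0.926 to 1.03), and the membrane anchors Sdhc and Sdhd at 0.831 (0.754 to 0.917) and 0.873 (0.808 to 0.944).

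Complex III had the nuclear member with the highest ratio, Uqcrfs1, the Rieske iron-sulfur protein. It had 2532 and 3951 UMIs, 1.48 and 1.83 per 10000, and was seen in 45.9% and 51.8% of T cells, a ratio of 1.23 (1.17 to 1.30). Its class ratios ran from 1.06 in cycling to 1.35 in the other T cells, all above 1. The 3 core members had a median of 1.08. All 5 small members lay below 1, with a median of 0.945, above the 0.932 of the median gene. Uqcr11, with 1994 and 2010 UMIs, had a ratio of 0.796 (0.748 to 0.848), and Uqcrh, with 10769 and 13522 UMIs, one of 0.992 (0.967 to 1.02). The intervals of Uqcrh and Uqcrq held 1.

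Complex IV was close to even. Its 12 ubiquitous nuclear members had a median of 1.00, and 1 of them was counted as lower (23.4% of all genes were). That one, Cox7c, had 4806 and 4697 UMIs, 2.82 and 2.17 per 10000, a ratio of 0.772 (0.742 to 0.804), and was below 1 in all 9 T classes. Cox4i1, the most counted nuclear member of all, had 13058 and 18584 UMIs, 7.65 and 8.61 per 10000, a ratio of 1.12 (1.10 to 1.15), and was above 1 in all 9. Cox8a, the smallest subunit, had 12706 and 16157 UMIs and a ratio of 1.00 (0.982 to 1.03).

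In complex V high and low members stood side by side within the parts of the enzyme. Of the catalytic head, Atp5b, the beta subunit, had 8770 and 12668 UMIs, 5.14 and 5.87 per 10000, a ratio of 1.14 (1.11 to 1.17), and Atp5d, the delta subunit, had 7017 and 10086 UMIs, a ratio of 1.14 (1.10 to 1.17). Atp5e, the small epsilon subunit and the most counted nuclear member of the complex, had 12185 and 12296 UMIs, 7.14 and 5.69 per 10000, a ratio of 0.797 (0.778 to 0.818), below 1 in all 9 classes. So the subunits of the head did not move together. The c ring and the peripheral stalk had 0 members counted as lower (23.4% of all genes were).

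The 5 small membrane subunits of the ATP synthase, which lie where the enzyme pairs into dimers, had a median of 0.719. Of these 5, 3 were counted as lower (23.4% of all genes were). Atp5k (subunit e) had 1156 UMIs in the anti-IgG library and 913 in the anti-PD1 library, 0.677 and 0.423 per 10000, and was seen in 25.4% and 15.8% of T cells, a ratio of 0.624 (0.572 to 0.681). Atp5l (subunit g) had 1013 and 871 UMIs, 0.594 and 0.403 per 10000, a ratio of 0.679 (0.620 to 0.744). Atp5mpl had 4062 and 3699 UMIs, 2.38 and 1.71 per 10000, a ratio of 0.719 (0.688 to 0.752). All 3 lay below 1 in each of the 9 T classes. Atp5k ran from 0.485 in the other CD4 cells (179 and 60 UMIs) to 0.749 in the Foxp3 class (74 and 68 UMIs), and Atp5mpl kept within 0.675 to 0.764. Atp5j2 (subunit f) had a ratio of 0.801 (0.774 to 0.829), and Atp5md, the other member of the group, stood on the far side with 3662 and 5202 UMIs, a ratio of 1.12 (1.08 to 1.17).

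**Figure D2:**
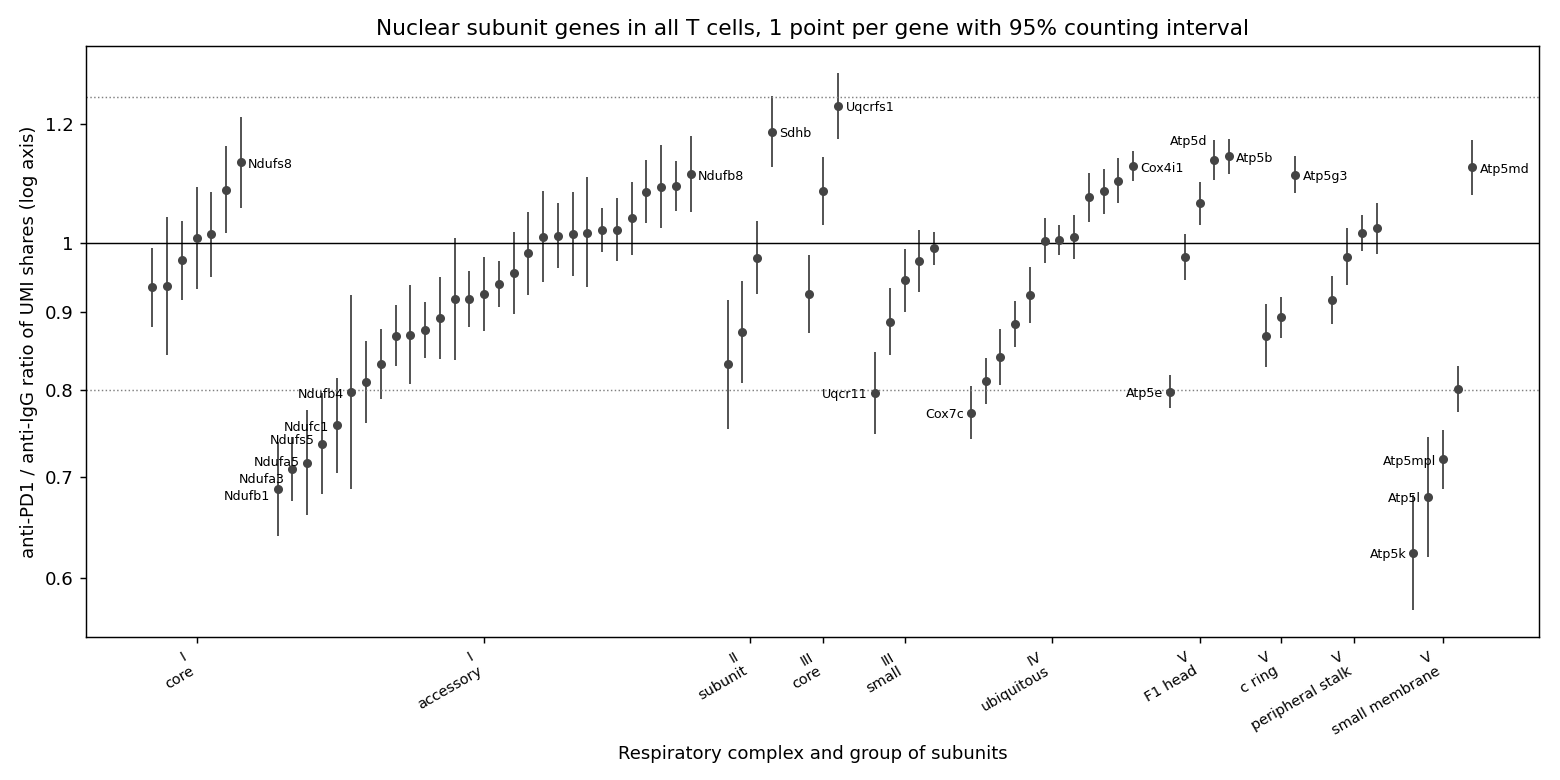
The anti-PD1 over anti-IgG ratio of UMI shares in all T cells (vertical log axis) for the nuclear subunit genes with at least 100 UMIs, 1 point each with a 95% counting interval, ordered within groups of subunits along the horizontal axis; dotted lines mark 0.8 and its inverse. Core subunits of complexes I and III lie from 0.925 (Uqcrc2) to 1.23 (Uqcrfs1), and the small membrane subunits of complex V reach down to 0.624 (Atp5k).

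Counted class by class, the share of lower nuclear members lay near the background in most T classes. In cycling T cells 17 of 76 members were lower (19.1% of all genes) and 0 higher (12.6%). In the NK-receptor class, the smallest, 23 of 70 were lower (18.9%) and 1 higher (19.3%). This was the largest share of lower members among the T classes. In the type 17 or gamma-delta class 16 of 76 were lower (22.5%) and 3 higher (12.1%). In the Foxp3 class 15 of 75 were lower (21%) and 4 higher (12.3%). In CD8 effector cells 7 of 77 were lower (18%) and 2 higher (13.6%), the smallest share of lower members. In CD8 naive cells 13 of 64 were lower (20.3%) and 3 higher (17%). In CD4 naive cells 13 of 76 were lower (21.1%) and 0 higher (13.1%). In the other CD4 cells 20 of 76 were lower (22%) and 0 higher (13.1%), and in the other T cells 18 of 77 were lower (24.2%) and 1 higher (12.4%). Fewer members than the background share were higher in each of the 9 classes. Outside T cells, B cells had 4 of 30 lower (9.77%) and 3 higher (38.8%), macrophages 19 of 52 lower (27.8%) and 0 higher (16.5%), and cells with Siglech or Klk1 5 of 64 lower (15.3%) and 4 higher (14.1%).

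Over the T classes, 77 of the 79 members had at least 20 UMIs in every class. Of these, 21 lay below 1 in all 9 classes and 4 above 1 in all 9 (Cox4i1, Atp5b, Sdhb and Uqcrfs1). Among all 6529 genes with that many UMIs in every class, not matched to the members in level, 14.6% lay below 1 in all 9 and 8.24% above. Of the 13 lower members, 11 were below 1 in all 9. The 13 were picked by their ratio over these same cells pooled, so values below 1 in the classes are no separate support. The same holds for each low or high member said above to lie on 1 side in all 9 classes. The classes come from the same 2 libraries and are not replicates. Cells that are not T cells gave a like direction for some of the members: Ndufb1 stood at 0.533 (0.297 to 0.955) in B cells, 0.573 (0.371 to 0.885) in macrophages and 0.497 (0.319 to 0.765) in cells with Siglech or Klk1. Atp5k did not, at 1.15 (0.410 to 3.71) in B cells on 6 and 13 UMIs. In the cells with Siglech or Klk1 it stood at 1.07 (0.656 to 1.77). These intervals were too wide to show a difference at this depth. The small membrane subunits, Atp5k among them, were lower when summed: 0.748 (0.638 to 0.878) in macrophages and 0.676 (0.533 to 0.849) in endothelial cells. In cells with Siglech or Klk1 their summed ratio was 0.808 (0.712 to 0.917). In B cells and fibroblasts it was 0.903 (0.725 to 1.13) and 0.913 (0.734 to 1.14), intervals that held 1.

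**Figure D3:**
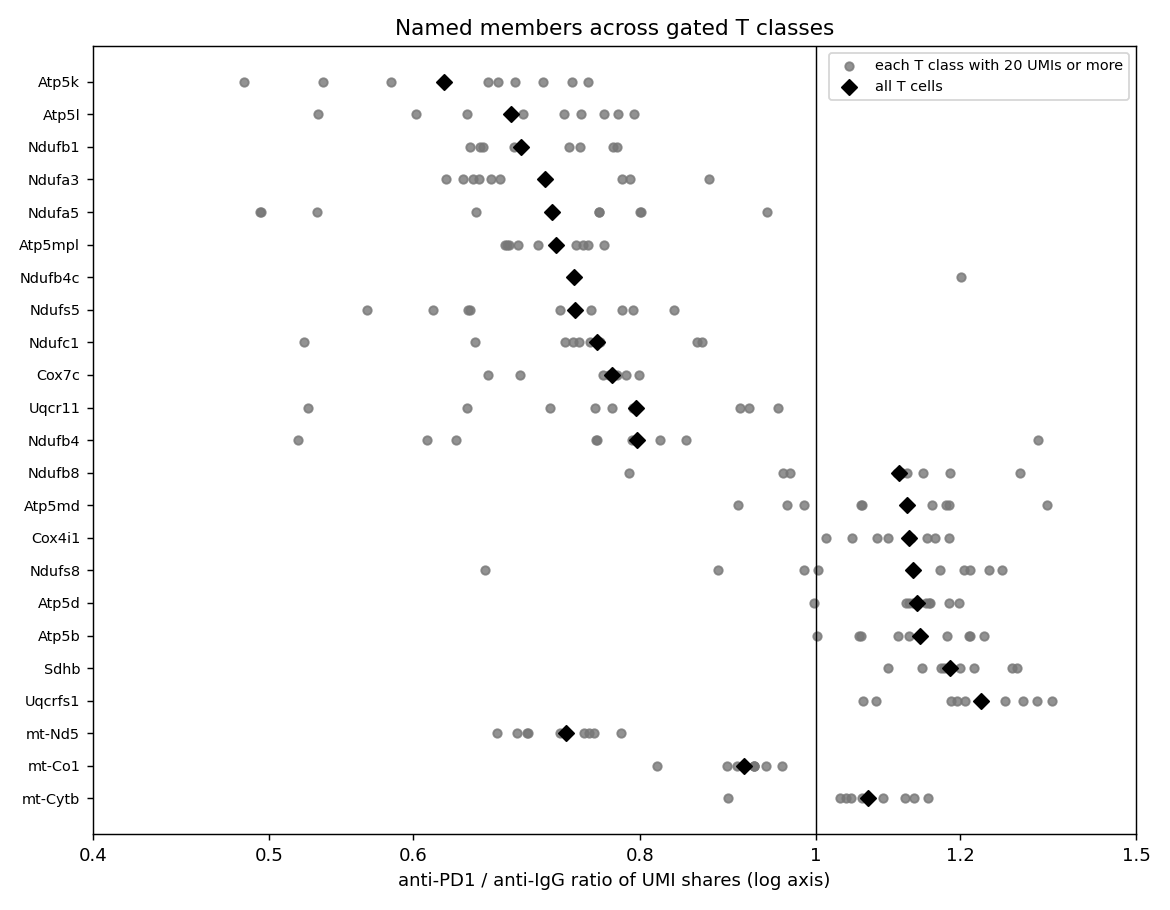
The anti-PD1 over anti-IgG ratio of UMI shares (horizontal log axis) of the 20 nuclear members with the lowest and highest ratios and 3 mitochondrial members, with 1 grey point for each T class holding at least 20 UMIs and a diamond for all T cells. Points of Atp5mpl stay between 0.675 and 0.764 and those of Uqcrfs1 between 1.06 and 1.35, while Ndufb4 and Ndufs8 have points on both sides of 1.

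Most of the low nuclear members had short transcripts. Among members with at least 1000 UMIs and a median annotated transcript under 600 bases, 9 of 29 were counted as lower (21.6% of all 236 such genes), with a median log2 ratio of -0.16 against -0.11 for all genes of that length. Of the 27 members from 600 to 1000 bases 1 was lower (10.3% of 883 genes), with medians of -0.04 in both. From 1000 to 2000 bases 0 of 16 were lower (11.0% of 1395 genes). At 2000 bases and over 0 of 3 were lower (16.7% of 2522 genes), with a median log2 ratio of -0.20 against -0.08, so the ratio did not rise with length throughout. Across genes, Spearman's rho between length and log2 ratio was 0.325 over 75 nuclear members and, with the opposite sign, -0.0580 over 5036 genes; genes of a library are not independent of each other. Parts of some low members also occur in the transcripts of other genes: 62.2% of the 90-base windows of Atp5l and, in the last 200 windows, 70.0% of Cox7c and 43.0% of Ndufs5 were found exactly elsewhere, so reads from them may be divided or dropped, and these 3 ratios are less certain for it. For Atp5k, Atp5mpl, Ndufa3 and Ndufa5 the share was 0.

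Promoters are printed for 4 members, chosen after their values were seen: Atp5k and Ndufa3, among the lowest, and Sdhb and Atp5b, among the highest. They show where letters known for regulators of respiratory genes lie, and each of the printed promoters holds a match. Searched on both strands were GCATGCGC, a core of NRF1 sites, CCGGAAG, a core of ETS factors such as GABP, and GCCATNTT, a core of YY1 sites, within 250 bases before and 50 after each start in RefSeq (GRCm38.p6). Capitals mark the matches, read 5′ to 3′ on the strand of the gene. Atp5k lies at chr5:108434350-108434649 on the minus strand and holds the NRF1 letters in both directions, overlapping, and 1 ETS match. Ndufa3 lies at chr7:3617123-3617422 on the plus strand with 1 YY1 match. Sdhb lies at chr4:140961021-140961320 on the plus strand with 1 NRF1 and 1 ETS match, and Atp5b at chr10:128083057-128083356 on the plus strand with 1 YY1 match.
Atp5k: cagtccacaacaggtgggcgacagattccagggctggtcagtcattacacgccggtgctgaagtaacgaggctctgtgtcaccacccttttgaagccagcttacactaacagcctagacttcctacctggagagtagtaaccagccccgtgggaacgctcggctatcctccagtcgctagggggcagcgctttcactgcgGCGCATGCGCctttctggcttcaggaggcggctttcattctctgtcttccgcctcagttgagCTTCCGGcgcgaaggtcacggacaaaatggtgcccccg
Ndufa3: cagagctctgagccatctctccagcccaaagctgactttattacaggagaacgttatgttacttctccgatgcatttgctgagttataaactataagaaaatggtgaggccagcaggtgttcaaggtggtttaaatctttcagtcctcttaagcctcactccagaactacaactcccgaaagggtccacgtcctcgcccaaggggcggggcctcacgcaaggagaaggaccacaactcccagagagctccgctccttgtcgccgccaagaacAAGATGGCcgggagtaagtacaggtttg
Sdhb: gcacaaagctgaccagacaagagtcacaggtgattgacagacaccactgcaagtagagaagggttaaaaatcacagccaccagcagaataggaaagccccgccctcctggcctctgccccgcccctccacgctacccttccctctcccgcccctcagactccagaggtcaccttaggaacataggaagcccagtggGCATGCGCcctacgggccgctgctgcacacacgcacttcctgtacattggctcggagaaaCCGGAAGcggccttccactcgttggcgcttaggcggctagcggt
Atp5b: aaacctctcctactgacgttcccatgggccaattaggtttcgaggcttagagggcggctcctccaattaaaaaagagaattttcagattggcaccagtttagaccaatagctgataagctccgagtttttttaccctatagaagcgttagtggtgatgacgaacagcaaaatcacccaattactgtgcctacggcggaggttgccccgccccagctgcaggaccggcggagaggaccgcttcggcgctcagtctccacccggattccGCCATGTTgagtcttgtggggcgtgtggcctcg

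In the printed windows, NRF1 and ETS letters occur in Atp5k and in Sdhb, and YY1 letters in Ndufa3 and in Atp5b. Among the printed members, each kind of letters was thus present in a low and in a high one. Other members held no match of any kind: Ndufb1, Ndufa5, Ndufs5, Cox7c and Ndufb4 among the low, and Uqcrfs1 and Atp5d among the high. Whether low and high members as groups differ in these letters was not tested. A gene was counted if any of its starts held a match. Of the 69 nuclear members with a promoter given, 10 held the NRF1 letters (14.5%, against 3.05% of all 27025 genes with a promoter). The ETS letters were held by 17 (24.6% against 9.93%) and the YY1 letters by 17 (24.6% against 6.96%). The 27025 genes were not matched to the members in type or expression level. A match is only a description of the letters.

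The mitochondrial members are unequal in both libraries, and the order of their counts was nearly the same. mt-Co1, the catalytic subunit of complex IV, had 45721 UMIs in the anti-IgG library and 52822 in the anti-PD1 library in T cells, 35.8% and 35.2% of the mitochondrial part, a ratio of 0.913 (0.901 to 0.924). mt-Cytb of complex III had 27295 and 36907 UMIs, 21.4% and 24.6% of the part, and was the one mitochondrial member above 1, at 1.07 (1.05 to 1.09). It was above 1 in 8 of 9 T classes and below in the NK-receptor class (0.894). mt-Nd5 of complex I had 11205 and 10335 UMIs, 6.57 and 4.79 per 10000, a ratio of 0.729 (0.709 to 0.749), and was below 1 in all 9 classes, from 0.667 to 0.781. The mitochondrial genome is transcribed as long precursors that are cut into single messages. Relative to all UMIs its messages differed in opposite directions between the libraries, with mt-Cytb alone above 1, and the reason was not tested.

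Of the other members with many UMIs, mt-Nd1 had 10222 and 12658 UMIs and a ratio of 0.978 (0.953 to 1.00). mt-Nd2 had 12787 and 14765 UMIs and a ratio of 0.912 (0.891 to 0.934). mt-Atp8 of the ATP synthase had 13100 and 14932 UMIs and a ratio of 0.901 (0.880 to 0.922). These 3 lay between mt-Nd5 and mt-Cytb. mt-Nd4 had 4911 and 5158 UMIs and a ratio of 0.830 (0.798 to 0.863). mt-Nd6, the member encoded on the other strand, had 1867 and 1885 UMIs and a ratio of 0.798 (0.748 to 0.851).

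The remaining 5 members were nearly absent from the counts. mt-Nd4l had 460 and 285 UMIs, a ratio of 0.490 (0.421 to 0.569). mt-Atp6 had 105 and 60 UMIs, a ratio of 0.451 (0.323 to 0.626), which became 1.31 when each cell was thinned to 1000 UMIs. mt-Co2 had 62 and 35 UMIs, a ratio of 0.446 (0.286 to 0.686). These are core subunits of complexes I, V and IV, and mt-Co3 (26 and 20 UMIs) and mt-Nd3 (17 and 18 UMIs) had intervals that held 1. Counts of mt-Atp6 and mt-Atp8, which are read from one message, differed more than 100-fold in both libraries.

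The 5 scarce members are those whose sequence is copied nearly whole in the nuclear genome. Every 90-base window of each annotated transcript (GENCODE M21, GRCm38, the build that mm10 names) was looked up in the transcripts of all other genes. The share found exactly was 99.9% for mt-Co3, 99.5% for mt-Co2 and mt-Atp6, 98.6% for mt-Nd4l and 97.7% for mt-Nd3. It was 61.1% for mt-Nd4 and 33.4% for mt-Co1, at most 4.21% for mt-Nd2 and mt-Nd5, and 0 for mt-Nd1, mt-Nd6, mt-Atp8 and mt-Cytb. The copies of the 5, of mt-Nd4 and of mt-Co1 are unprocessed pseudogenes lying side by side on chromosome 1 on the minus strand, from Gm28439 (chr1:24611535-24612410) to Gm29216 (chr1:24615706-24616197). Each of the 5 had fewer UMIs than each of the other 8 in both libraries, with no overlap. A read found in 2 places cannot be given to 1 gene, and the treatment of such reads in the counting is not given in these sources.

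Stretches of 60 bases show the difference between a copy on chromosome 1 and one elsewhere. Positions are counted from 1 at the 5′ end of each transcript, and capitals mark letters that differ. mt-Co3 (chrM:8607-9390, plus strand) is shown at 362 to 421 with the same positions of Gm28437 (chr1:24613189-24613971), which has 0 differences. mt-Nd5 (chrM:11742-13565, plus strand) is shown at 1247 to 1306 with positions 500 to 559 of Gm11407, a processed pseudogene at chr4:80002331-80003388, which has 5.
mt-Co3: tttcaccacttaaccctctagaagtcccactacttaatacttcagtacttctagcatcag
Gm28437: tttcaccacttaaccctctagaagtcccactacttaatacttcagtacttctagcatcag
mt-Nd5: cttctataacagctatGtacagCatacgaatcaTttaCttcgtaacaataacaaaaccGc
Gm11407: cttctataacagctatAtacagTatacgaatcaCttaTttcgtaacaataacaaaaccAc

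The mt-Co3 message cannot be told from its copy in this stretch, while the mt-Nd5 message can. With the 5 copied members left out, the mitochondrial ratio was 0.929, against 0.927 with them. Their low counts therefore carry little weight in the part as a whole. For mt-Co1 and mt-Nd4 part of the message is copied (the last 200 windows of mt-Co1 at 100%, the first 200 of mt-Nd4 at 100%), and their levels against other members are uncertain for the same reason. mt-Co1 was still the most counted mitochondrial member. Whether copying accounts for the low counts of the 5 was not tested.

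**Figure D4:**
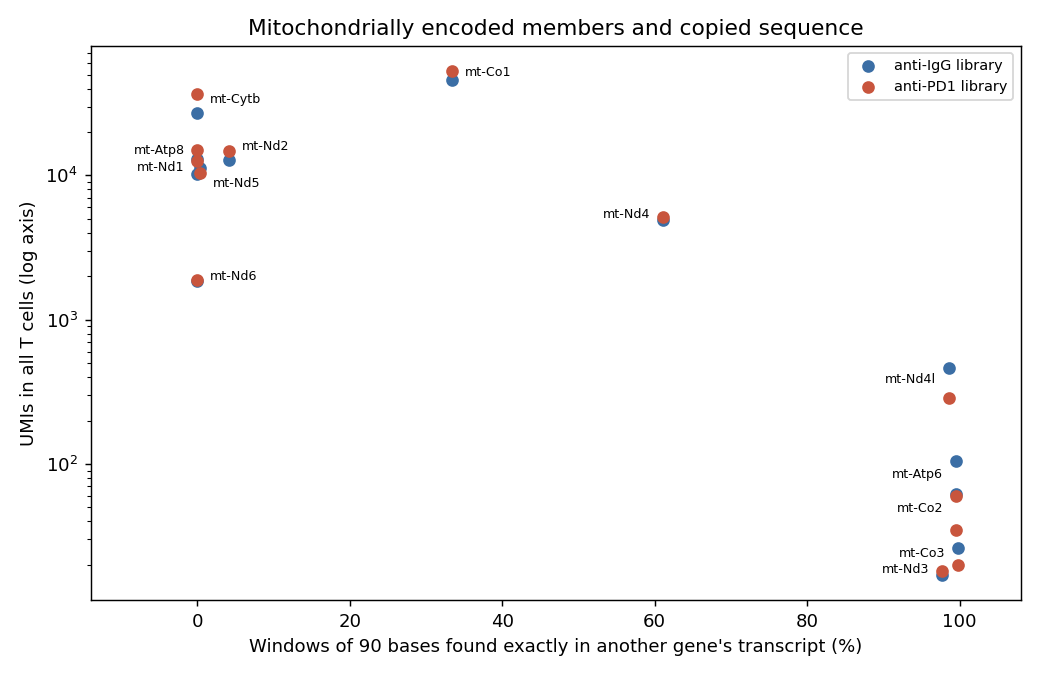
UMIs in all T cells (vertical log axis) of the 13 mitochondrial members against the share of their 90-base windows found exactly in another gene's transcript (%, horizontal axis), with 1 point per library. The 5 members above 97% have at most 460 UMIs, and the other 8 at least 1867.

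Outside T cells the mitochondrial part was higher in the anti-PD1 library in B and endothelial cells over cells of all depths. In B cells the mitochondrial share was higher in the anti-PD1 library, 0.985% (137 cells) against 0.807% (56 cells), a ratio of 1.22 (1.15 to 1.29), while the nuclear shares were 1.32% and 1.33%. The median B cell gene itself stood at 1.17, and the median of the 7 mitochondrial members with at least 100 UMIs at 1.16. In B cells of 3000 to 6000 UMIs the mitochondrial share was 0.958% in the anti-IgG library (19 cells) and 0.999% in the anti-PD1 library (32 cells), closer together than over all depths. mt-Cytb led, with 371 anti-IgG and 1012 anti-PD1 UMIs, 17.2 and 25.0 per 10000, a ratio of 1.45 (1.29 to 1.64), and mt-Co1 stood at 1.16 (1.05 to 1.29). The mitochondrial ribosomal RNAs, no members, also made up more of the anti-PD1 B cells' UMIs, 1.56% against 1.27%, and the B cells' median depth was 2718 and 2381 UMIs. In endothelial cells (52 and 36 cells) the mitochondrial ratio was 1.09 (1.02 to 1.16), where the 9 cardiomyocyte markers summed to 3.17 and 1.87 per 10000. In endothelial cells of 3000 to 6000 UMIs the direction was the opposite, 0.918% in the anti-IgG (12 cells) and 0.739% in the anti-PD1 library (14 cells). In macrophages (51 and 113 cells) both parts were lower, at 0.880 (0.850 to 0.912) for the nuclear and 0.863 (0.817 to 0.911) for the mitochondrial members.

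The tissue isoforms of complex IV were at or near 0 in T cells, and Cox6a2 and Ndufa4l2 were seen in many cells of another class. Cox6a2, the isoform of subunit VIa known from heart and skeletal muscle, had 7 UMIs in the anti-IgG library and 9 in the anti-PD1 library in all T cells, in 0.190% and 0.163% of cells. In cells gated on Siglech and Klk1 it had 847 and 872 UMIs, 15.4 and 14.0 per 10000, in 64 of 68 cells (94.1%, 85.6 to 98.4) and 78 of 87 cells (89.7%, 81.3 to 95.2). Those cells are left without a cell type name because their gate holds 2 genes, and Cox6a2 was not one of them. Their median depth was 7995 and 7224 UMIs against 3943 and 3719 in T cells, and the 9 cardiomyocyte markers summed to 4 and 1 UMIs in them. Macrophages had 13 and 11 UMIs of Cox6a2, in 2 and 5 cells, at 0.396 and 0.172 per 10000. Within the class with Siglech or Klk1 the 2 libraries differed little, with a ratio of 0.907 (0.824 to 0.998).

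The ubiquitous partner was present in every class. Cox6a1 had 4960 and 6731 UMIs in T cells, in 62.8% and 64.8% of cells, a ratio of 1.07 (1.03 to 1.11), and stood at 2.91 and 2.90 per 10000 in the cells with Siglech or Klk1. In those cells Cox6a2 thus had more UMIs than Cox6a1, which had 160 and 181. The scale is UMIs per 10000, where each captured molecule counts once whatever its length.

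**Figure D5:**
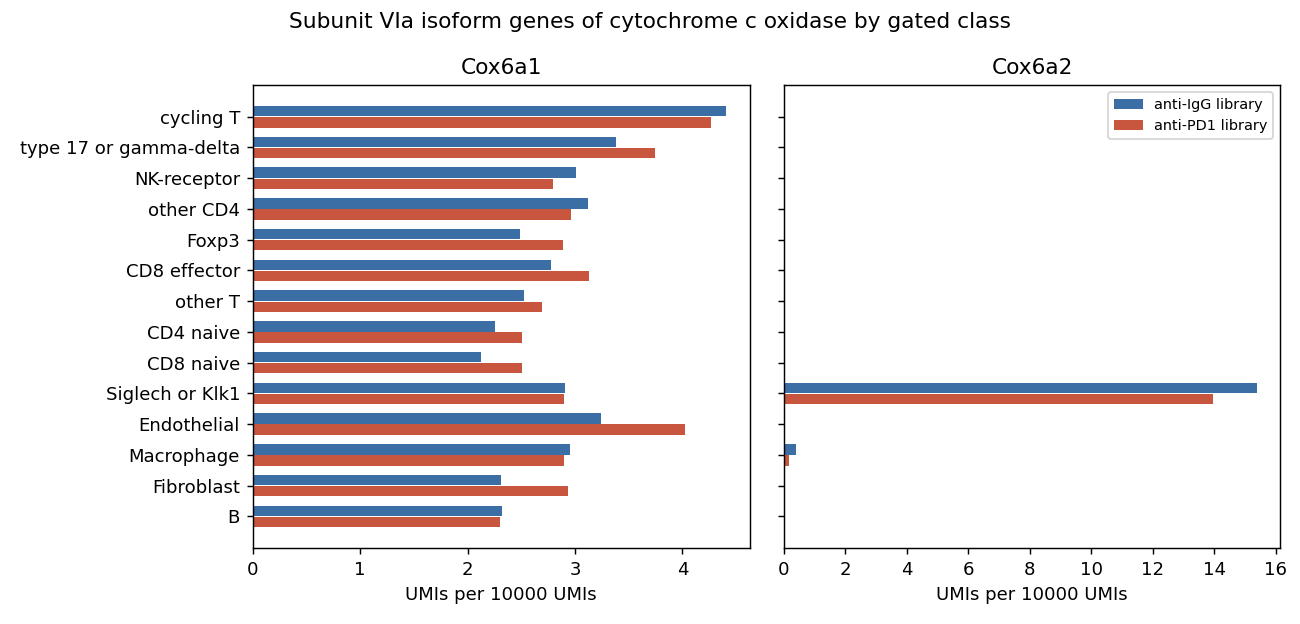
UMIs per 10000 UMIs (horizontal axes, each with its own scale) of Cox6a1 (left) and Cox6a2 (right) in each gated class, with 1 bar per library. Cox6a1 is seen in every class, and Cox6a2 stands at 15.4 and 14.0 in the cells gated on Siglech or Klk1 and at most at 0.396 elsewhere.

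The other isoforms were rare. Cox4i2, the isoform induced by low oxygen, had 2 and 3 UMIs in T cells, against 8 and 6 in endothelial cells, where it was seen in 5 of 52 and 2 of 36 cells. Ndufa4l2, another hypoxia gene, had 4 and 1 UMIs in T cells but 42 and 20 in fibroblasts, in 12 of 21 and 8 of 20 cells. Its partner Ndufa4 had 5968 and 7583 UMIs in T cells, a ratio of 1.00 (0.970 to 1.04). Cox7a1 had 12 and 16 UMIs in T cells, Cox6b2 12 and 21, and Cox8b 1 and 1. Cox7b2 and Cox8c had 0, which allows up to 0.00176 and 0.00139 UMIs per 10000. Their partners Cox7a2, Cox6b1 and Cox7b had ratios of 0.924 (0.886 to 0.964), 0.884 (0.854 to 0.916) and 0.841 (0.806 to 0.877).

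The genes that assemble, express and feed the chain are read against all genes, of which 23.4% were lower by the same count, 11.1% higher and the median log2 ratio -0.10. Most of the lists lay near or under that share of lower genes, and those for assembly of complex III, assembly of complexes II and V, and mitochondrial transcription lay above it. Of 15 assembly factors of complex I, 4 were lower by the same count and 0 higher (Tmem126b 0.589, Ndufaf1 0.690). Of 6 for complex III, 4 were lower and 0 higher, and of 21 for complex IV, 6 were lower and 1 higher. Cox17, the copper chaperone of complex IV, had 1888 and 1693 UMIs, a ratio of 0.708 (0.663 to 0.757). The 4 lists of assembly factors had median log2 ratios of -0.20 (I), -0.36 (III), -0.09 (IV) and -0.29 (II and V, 3 of 8 lower). Of 79 mitochondrial ribosome genes 12 were lower and 0 higher (median -0.14), and of 14 enzymes of the tricarboxylic acid cycle 0 were lower and 0 higher (median -0.03). Protein import had 4 of 22 lower, among them Tomm7 at 0.710 (0.679 to 0.742), and 0 higher (median -0.10).

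Among 9 nuclear regulators of respiratory genes 1 was lower and 1 higher, with a median log2 ratio of -0.14, and the other 7 lay between 0.848 and 1.13. Gabpb1, which encodes the beta subunit of the ETS factor GABP, had 547 UMIs in the anti-IgG library and 1773 in the anti-PD1 library, a ratio of 2.56 (2.33 to 2.82). Its relative Gabpb2 had 1043 and 842 UMIs, a ratio of 0.638 (0.582 to 0.699). Gabpa, the DNA-binding subunit, stood at 0.871 (0.765 to 0.991) and Nrf1 at 1.13 (1.03 to 1.249). Among 20 genes of mitochondrial transcription and message stability, 7 were lower and 3 higher: Polrmt, the mitochondrial RNA polymerase, stood at 0.667 (0.541 to 0.820), and Polg2, a subunit of the mitochondrial DNA polymerase, at 1.67 (1.47 to 1.91). Among 8 further subunits and carriers, 2 were lower and 1 higher: Ndufab1, the acyl carrier subunit of complex I, stood at 0.647 (0.570 to 0.734), and Cyc1, cytochrome c1 of complex III, at 1.03 (0.969 to 1.10).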

How the data were processed

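Single-cell RNA of 2 libraries, 1 from anti-IgG and 1 from anti-PD1 mice, was measured with a droplet-based 3′ kit, per the labels' protocols. The first bases of the barcodes resemble another kit version, which was not checked against a barcode list. Values were used as deposited, as whole-number counts of UMIs for each gene in each barcode, without normalization. The header of the count files records Cell Ranger 7.1.0; Cell Ranger 7.2.0, Seurat 4.4.0 and mm10 appear in the submitters' processing notes. Which annotation was counted is not given in these sources; 52081 of 55357 gene IDs were found in GENCODE M21.

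Barcodes were kept as cells from 300 genes and 500 UMIs upward, where no more than 10% of UMIs were mitochondrial. Gates used UMI counts of single cells over 83 marker genes, of which 2 symbols were not found. A T cell had at least 1 UMI of Cd3d, Cd3e or Cd3g and fewer than 3 of each other lineage's list. Cells of another class had 0 Cd3 UMIs and at least 3 of its list, and T classes were taken in order: cycling (3 UMIs), NK receptor and type 17 or gamma-delta (2 UMIs each), Foxp3 (1 UMI), then CD8 and CD4 cells by effector or naive genes (2 UMIs), and the rest. No doublet caller was run; 370 anti-IgG and 521 anti-PD1 cells that met no gate, among them cells with markers of both T and other cells, entered no class, and leaving out the deepest barcodes was an alternative. UMIs were summed per library and class and divided by the class total. Ratios are anti-PD1 over anti-IgG with exact 95% intervals conditional on the summed UMIs, and for shares of cells the 95% interval is the exact one of Clopper and Pearson. All cover counting error only, and ratio intervals treat each UMI as drawn singly. A count of 0 was read as up to 3 counts.

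The members and gene lists were chosen with earlier results of these data known. Named genes were the 13 mitochondrial members, the 12 lowest and 8 highest nuclear ratios among members with at least 100 UMIs, the most counted member of each complex, and the tissue isoforms with their partners; genes of the pathway lists, and others where said, were chosen after their values were seen. Python 3.11.15, numpy 2.4.6, scipy 1.17.1, pandas 2.3.3 and matplotlib 3.10.9 were used, and the calculations were tested on simulated data.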

Additional observations from a re-analysis of the deposited data

Results flagged for a closer look

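Over cells of all depths, the mitochondrial part differed in opposite directions in different cells. It was lower in the anti-PD1 library in all T cells (ratio 0.927) and higher in B cells, with a ratio of 1.22 (1.15 to 1.29) from 56 and 137 cells. The median gene stood at 0.932 in all T cells and at 1.17 in B cells. In B cells of 3000 to 6000 UMIs the mitochondrial shares were 0.958% (anti-IgG) and 0.999% (anti-PD1). In endothelial cells it was also higher, with a ratio of 1.09 (1.02 to 1.16) from 52 and 36 cells, but in those of 3000 to 6000 UMIs it was lower, at 0.918% (anti-IgG, 12 cells) and 0.739% (anti-PD1, 14 cells). With 1 library per group the difference between these cells and T cells was not tested.

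Barcodes with more than 10% mitochondrial UMIs, which entered no comparison, made up 2.97% (2.56 to 3.43) of the anti-PD1 library, above the 1.37% (1.05 to 1.76) of the anti-IgG library.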

How the results depend on the processing

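No paired analysis was possible because each group is 1 library, and for the same reason no replicate could be left out. The nuclear ratio (0.970) was 0.977 with ribosomal and mitochondrial transcripts out of the denominator, 0.977 with each cell weighted alike, 0.963 without its most counted member, and 1.04, the other direction, relative to the median gene. That median was over genes with at least 100 UMIs. The mitochondrial ratio (0.927) was 0.944 with a limit of 20% mitochondrial UMIs, 0.919 without barcodes above the 95th percentile of UMIs, 0.907 with cells thinned to 1000 UMIs (34 and 52 T cells too shallow), 0.911 with each cell weighted alike, 0.935 without mt-Co1 and 0.995 relative to the median gene. The 13 lower nuclear members became 8 relative to the median gene. The 0 higher members became 1 without barcodes above the 95th percentile, 1 with each cell weighted alike and 2 relative to the median gene. Over 33 named members and 11 settings, 329 of 363 values moved by less than the counting interval of the ratio, 33 moved beyond it without changing a call's direction, and 1, mt-Atp6 (0.451), turned to 1.31 when thinned. Of members not past the threshold, mt-Nd3 (0.837) reached 1.501 when thinned and mt-Nd1 (0.978) 1.05 relative to the median gene. The cause of these shifts was not tested, and mt-Atp6, mt-Co2, mt-Co3 and mt-Nd3 rest on few UMIs. The settings without shared barcodes, without the 5 copied members and with at least 2000 UMIs per gene were added after seeing the data; with the last, 10 nuclear members were lower and 0 higher. A limit of 5%, at least 1000 genes, at least 3 Cd3 UMIs and the same mix of classes kept both ratios within counting error, and with these or with 50 or 200 UMIs per gene the lower members numbered 11 to 14. The smallest T class held 115 anti-IgG cells.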
